A study of Homo sapiens with 6 samples.

Results

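The serum and visceral endoderm protein genes examined here are APOA1, APOA2, APOB, APOC1, APOE, TTR, AFP, ALB, RBP4 and SERPINA1, which are 10 of the 49278 named genes in the expression table. They were chosen by symbol, and all 10 symbols were found in the table. The table holds RNA-seq of HUES8, an established human embryonic stem cell line, after 3 days of differentiation toward definitive endoderm (DE), the germ layer from which liver, pancreas and gut arise. The WT group (2 libraries) is the parental line. The PDHB+/-_1 group (2 libraries) and the PDHB+/-_2 group (2 libraries) are heterozygous for PDHB, the E1 beta subunit of the pyruvate dehydrogenase complex, which turns pyruvate into acetyl-CoA. Each PDHB+/- group is 1 clone grown from a single colony after CRISPR/Cas9 editing with a PDHB guide, so a difference from WT cannot be told apart from a difference between colonies. All groups received 100 ng/ml Activin A in DMEM with 0.2% BSA for those 3 days. Libraries were sequenced to between 11367719 and 14315627 reads on genes, numbers that were recovered from the deposited values, and the largest ratio of these totals was 1.26. On the TPM scale, which sets reads against gene length and library total, PDHB itself was 368.9 and 361.7 TPM in WT, 177.8 and 166.2 TPM in PDHB+/-_1 and 200.4 and 157.1 TPM in PDHB+/-_2, so every PDHB+/- library lay below both WT libraries (log2 fold change -1.06 ± 0.10 SE, limma adjusted p = 0.00077). The labels do not say whether 2 libraries of a group are separate cultures, so p-values measure only the spread between these libraries.

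These genes encode proteins that liver and, before liver exists, visceral endoderm of the embryo and its yolk sac secrete in large amounts. Apolipoproteins coat lipid particles and carry cholesterol and triglyceride, TTR and RBP4 carry thyroid hormone and retinol, AFP and ALB are the main fetal and adult plasma proteins, and SERPINA1 restrains neutrophil elastase. In liver and visceral endoderm their transcription depends on FOXA, GATA and HNF4 factors. Definitive endoderm at the stage examined expresses FOXA2, GATA4 and GATA6 but has not formed liver.

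The label of the gene set held for part of it. APOE, APOC1, APOA2 and APOA1 were measured well above background, while the other 6 genes had a mean below 1 TPM over the 6 libraries. AFP, ALB and SERPINA1 had at most 3 reads in each library and TTR was listed at 0 in all 6, so the profile was that of 4 apolipoprotein genes, not of the serum proteins as a class.

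The sequence before the start site is shown for the 3 genes with the highest levels and for AFP, whose transcript was nearly absent, because these genes share a tissue in the body but not a level here. The RefSeq promoter table (GRCh38.p14) matched 7 of the 10 genes with 12 promoters. APOA1, APOB and TTR have no entry in it. Each run below is the 250 bases upstream of the RefSeq start, 5′ to 3′ on the strand of the gene, with capitals marking a matched motif. APOE promoter 1 lies at chr19:44905546-44905795 on the + strand, APOC1 at chr19:44914422-44914671 on the + strand, APOA2 at chr1:161223629-161223878 on the - strand and AFP at chr4:73435971-73436220 on the + strand. In GENCODE the APOC1 gene begins at 44914247 and the AFP gene at 73431138. The runs of APOC1 and AFP therefore lie inside those gene spans and are upstream of the RefSeq start only.
APOE: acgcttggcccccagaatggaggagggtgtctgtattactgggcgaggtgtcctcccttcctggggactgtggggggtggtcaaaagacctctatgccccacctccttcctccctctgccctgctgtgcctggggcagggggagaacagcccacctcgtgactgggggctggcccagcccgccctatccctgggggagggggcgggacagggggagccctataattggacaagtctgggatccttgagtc
APOC1: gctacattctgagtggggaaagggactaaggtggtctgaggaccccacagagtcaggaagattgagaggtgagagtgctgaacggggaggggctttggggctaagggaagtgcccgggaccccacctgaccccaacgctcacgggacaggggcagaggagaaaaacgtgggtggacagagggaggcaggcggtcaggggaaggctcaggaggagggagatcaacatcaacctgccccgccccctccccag
APOA2: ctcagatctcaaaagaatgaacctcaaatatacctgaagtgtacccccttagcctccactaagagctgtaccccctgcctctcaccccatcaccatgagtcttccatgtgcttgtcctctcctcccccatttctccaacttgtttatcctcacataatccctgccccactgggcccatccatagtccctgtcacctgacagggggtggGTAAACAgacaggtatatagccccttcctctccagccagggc
AFP: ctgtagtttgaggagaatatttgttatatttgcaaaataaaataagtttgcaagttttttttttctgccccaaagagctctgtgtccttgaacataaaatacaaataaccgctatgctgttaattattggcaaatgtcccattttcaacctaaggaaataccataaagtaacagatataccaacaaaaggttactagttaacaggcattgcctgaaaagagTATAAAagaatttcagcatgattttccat

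A search was made on both strands for the FOXA motif TGTTTAC, the HNF4 motif CAAAGTCCA, the GATA motif AGATAA and the TATA box TATAAA. The 3 APOE promoters and the APOC1 promoter held none of these letters, and their first promoters had 64.8% and 62.4% G and C. APOA2 held the FOXA letters on the other strand, at -42 to -36, a match found in 2.98% of 35116 promoters of the same length. AFP held a TATA box at -29 to -24, and its promoter had 31.6% G and C. The HNF4 letters (0.325% of promoters) and the GATA letters (9.17%) were in none of the 12, and TATAAA (10.7%) was also in RBP4 promoters 2 and 3. A match is a run of letters and not a measured binding site.

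APOE was the most abundant of the 10 genes. APOE, at chr19:44905791-44909393 on the + strand (hg38, GENCODE), encodes the ligand through which remnant particles are taken up by cells. It reached 1579.6 and 1616.4 TPM in WT, and 48 genes of the table had a higher mean in WT. In PDHB+/-_1 it was 1449.8 and 1359.5 TPM, and in PDHB+/-_2 it was 1611.2 and 1269.5 TPM. The 2 genotypes overlapped, because PDHB+/-_2 replicate 1 lay between the WT libraries. Between 9608 and 11662 reads supported each value.

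APOC1 ranked next. This small apolipoprotein, an inhibitor of cholesteryl ester transfer protein, is encoded beside APOE on chromosome 19, at 44914247-44919349 on the + strand. Its level was 198.4 and 213.4 TPM in WT, 248.6 and 209.6 TPM in PDHB+/-_1 and 263.9 and 193.4 TPM in PDHB+/-_2. WT lay inside the range of the PDHB+/- libraries. In GENCODE 40.7% of the exonic bases of APOC1 are shared with another gene model on the same strand, and how reads there were assigned is not given in the sources used here. The ratio of APOE to APOC1, a measure chosen after the values were seen and not tested, was 7.96 and 7.58 in WT. In the 4 PDHB+/- libraries it was between 5.83 and 6.56, so the genotypes did not overlap. Single genes did not overlap in 54.9% of all genes tested, and no such share was computed for ratios.

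APOA2 and APOA1 encode the main structural proteins of high-density lipoprotein. APOA2, at chr1:161222292-161223631 on the - strand, was 101.9 and 97.0 TPM in WT, 78.3 and 46.2 TPM in PDHB+/-_1 and 73.6 and 37.4 TPM in PDHB+/-_2. All 4 PDHB+/- libraries lay below both WT libraries, and the lowest was replicate 2 in each clone. APOA1, at chr11:116835751-116837622 on the - strand, was 8.43 and 11.6 TPM in WT, 17.3 and 10.3 TPM in PDHB+/-_1 and 23.7 and 14.9 TPM in PDHB+/-_2. PDHB+/-_1 replicate 2 lay between the WT libraries, and the other PDHB+/- libraries exceeded both. The ratio of APOA2 to APOA1, also chosen after the values were seen and not tested, was 12.1 and 8.35 in WT, 4.51 and 4.47 in PDHB+/-_1 and 3.10 and 2.51 in PDHB+/-_2. APOA2 rested on 95 to 235 reads a library and APOA1 on 52 to 159. An antisense gene, APOA1-AS, covers 11.2% of the exonic bases of APOA1, and whether counting used strand is not given in the sources used here.

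**Figure D1:**
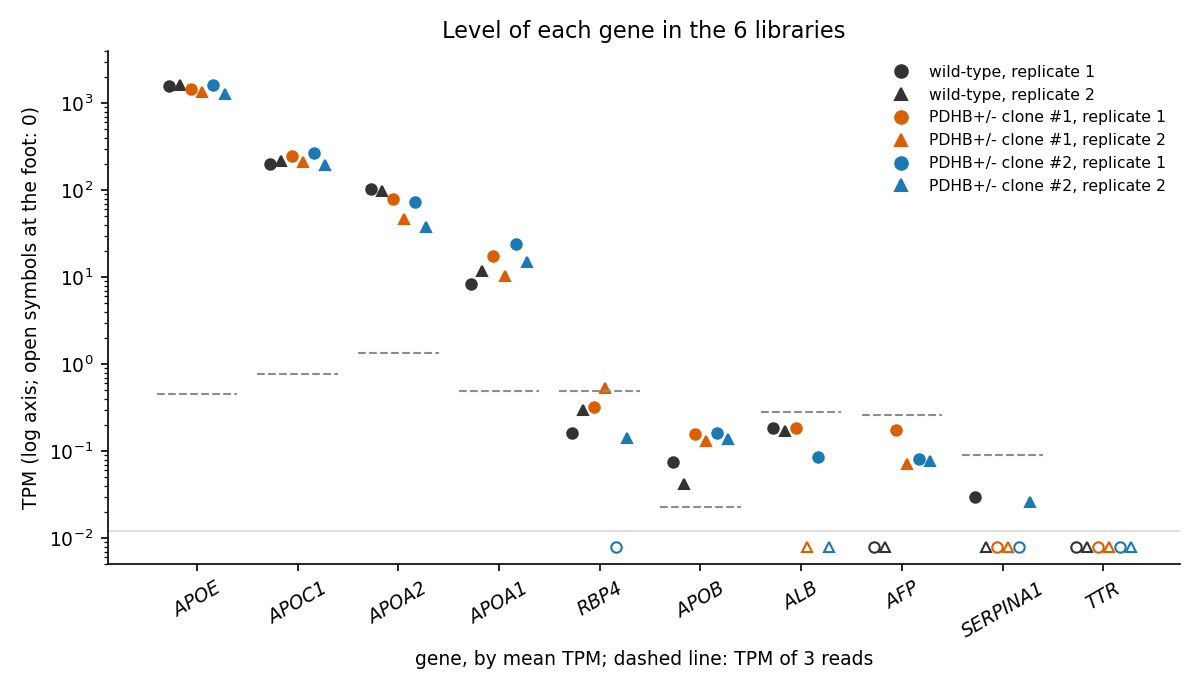
TPM of the 10 genes in each of the 6 libraries on a log axis, ordered by mean; open symbols at the foot stand for 0 and each dashed line is the highest TPM that 3 reads would give in any library. APOE, APOC1, APOA2 and APOA1 lie far above the dashed lines, APOB lies above its line in all 6 libraries, and RBP4 passes its line in 1 library.

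The 4 abundant genes kept 1 order in every library. APOE exceeded APOC1, APOC1 exceeded APOA2 and APOA2 exceeded APOA1 without overlap of their 6 values, on the TPM scale. TPM is per length as counted, which the values imply. That length was 1.21 times the reference transcript for APOE, 1.60 for APOC1, 1.0 for APOA2 and 1.46 for APOA1. The mean levels over the 6 libraries were 1481 TPM for APOE, 221 TPM for APOC1, 72.4 TPM for APOA2 and 14.4 TPM for APOA1. Below them, in the order RBP4, APOB, ALB, AFP and SERPINA1, each gene overlapped the next in range. The 10 genes together made up between 0.152% and 0.197% of all TPM in a library, and APOE alone accounted for 80.8% to 83.8% of that sum. Their sum was 1889 and 1939 TPM in WT and ranged from 1516 to 1973 TPM in PDHB+/- libraries, so the sums overlapped.

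APOB, at chr2:21001429-21044073 on the - strand, encodes the large protein around which chylomicrons and very low-density lipoprotein are built. It was 0.075 and 0.042 TPM in WT, 0.157 and 0.129 TPM in PDHB+/-_1 and 0.160 and 0.139 TPM in PDHB+/-_2. The values rest on 10 and 6 reads in WT, 21 in each PDHB+/-_1 library and 23 and 21 in PDHB+/-_2. Every PDHB+/- library had more than either WT library. The genotypes did not overlap, in either direction, in 54.9% of all genes tested, but those averaged at least 1 TPM and did not include APOB. No such share was computed for genes with so few reads. The summed rate was 1.58 against 0.681 RPM (reads scaled to the library total), which is 2.32 times as many. APOB was below the 1 TPM minimum for testing, and when that minimum was removed limma gave it an adjusted p of 0.157. The length implied by its values, 28242 bases, is 2.0 times that of the reference transcript, so its TPM is lower than reads over that transcript would give, while its ratio between groups is unaffected. MTTP, which loads lipid onto APOB, had at most 2 reads in each library.

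RBP4, at chr10:93591687-93601744 on the - strand, had 1 and 2 reads in WT, 2 and 4 in PDHB+/-_1 and 0 and 1 in PDHB+/-_2, or 0.164, 0.301, 0.324, 0.535, 0 and 0.143 TPM in that order. ALB, at chr4:73397114-73421482 on the + strand, had 2 reads in each WT library, 2 and 0 in PDHB+/-_1 and 1 and 0 in PDHB+/-_2, and its level did not exceed 0.186 TPM. AFP lies beside ALB, at chr4:73431138-73456174 on the + strand, and had 0 reads in both WT libraries, 2 and 1 in PDHB+/-_1 and 1 in each PDHB+/-_2 library. None of these genes differed detectably at this depth, since a count of 0 allows up to 3 reads, which for AFP is up to 0.263 TPM and for ALB up to 0.279 TPM. SERPINA1, at chr14:94376747-94390693 on the - strand, had 1 read in WT replicate 1, 1 in PDHB+/-_2 replicate 2 and none elsewhere. TTR, at chr18:31557009-31598833 on the + strand, was listed at 0 in all 6 libraries. These limits cover counting error only.

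The comparison of PDHB+/- with WT asks whether loss of 1 PDHB allele changes these transcripts during DE differentiation. Among the 4 genes that reached the 1 TPM minimum, none passed limma at an adjusted p of 0.05 (APOA2 alone had an unadjusted p under 0.05). Of all 17291 genes tested, 31.7% passed (22.8% higher and 8.86% lower), and 44.3% had an unadjusted p under 0.05. Mean APOA2 was 99.4 ± 3.5 TPM (SD, n = 2) in WT and 58.9 ± 20.1 TPM (SD, n = 4) in PDHB+/-. Its log2 fold change was -0.81 ± 0.29 (SE; 95% interval -1.49 to -0.13), with a limma adjusted p of 0.0705 (unadjusted 0.0258). With a replicate block APOA2 passed (limma adjusted p = 0.0172), as did 6266 of all 17291 genes, although the replicate numbers share no stated batch. APOA2 was also the single gene of the 4 whose genotypes did not overlap, against 54.9% of all genes tested. Fewer cells that express a gene and less of its RNA per cell cannot be told apart in these bulk libraries.

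APOA1 went the other way, from 10.02 ± 2.25 TPM (SD, n = 2) in WT to 16.58 ± 5.59 TPM (SD, n = 4) in PDHB+/-. Its log2 fold change was 0.63 ± 0.29 (SE; 95% interval -0.04 to 1.31), with a limma adjusted p of 0.132. APOE was 1598 ± 26 TPM (SD, n = 2) against 1422 ± 146 TPM (SD, n = 4), a log2 fold change of -0.17 ± 0.11 (SE; 95% interval -0.44 to 0.09; limma adjusted p = 0.281). APOC1 was 206 ± 11 TPM (SD, n = 2) against 229 ± 33 TPM (SD, n = 4), a log2 fold change of 0.14 ± 0.13 (SE; 95% interval -0.17 to 0.45; limma adjusted p = 0.446). In all 4 genes the interval was wide next to the value, and for APOE it left room for a fall of 0.44 or a rise of 0.09 on the log2 scale.

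**Figure D2:**
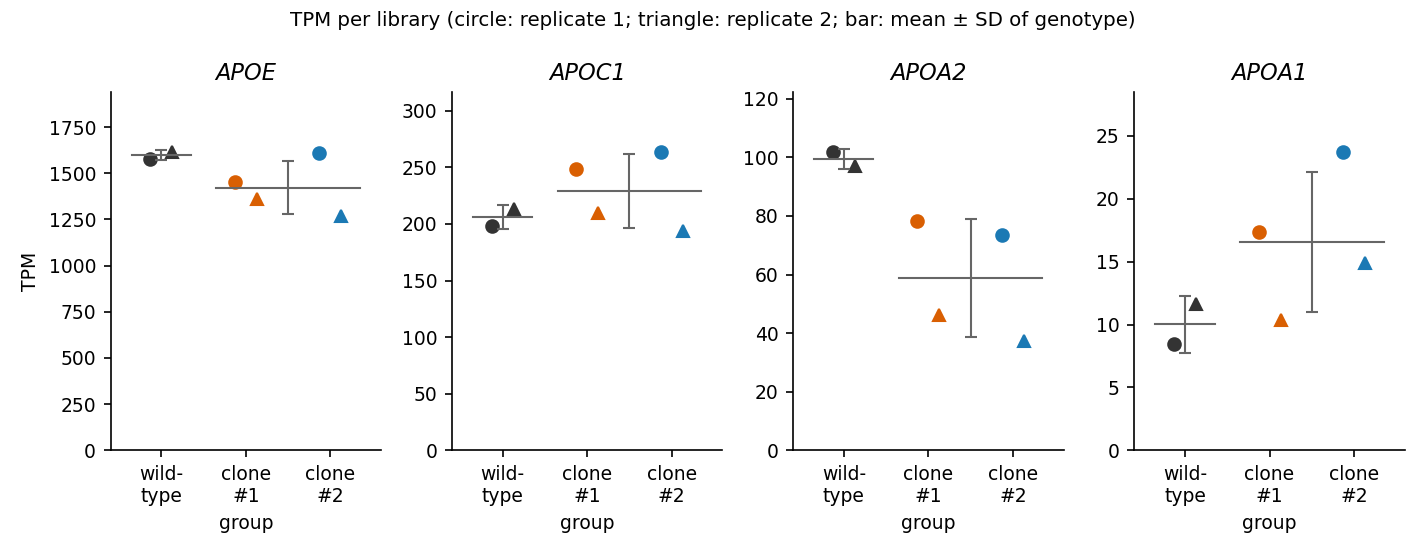
TPM of APOE, APOC1, APOA2 and APOA1 by group on linear axes that start at 0; each symbol is 1 library and the lines give the mean ± SD of WT (n = 2) and of the 4 PDHB+/- libraries. APOA2 is the gene whose 4 PDHB+/- libraries all lie below WT, and for each of the 4 genes replicate 2 of a clone lies below replicate 1.

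The scale of the values bears on these results. On the TPM scale the median log2 fold change of all genes tested was 0.13, and with median-of-ratios scaling it was 0.0019. Genes called were 3943 higher and 1532 lower on the TPM scale and 2396 higher and 2456 lower after that scaling. Relative to the median of all genes, the log2 fold changes were -0.94 for APOA2, -0.30 for APOE, 0.01 for APOC1 and 0.50 for APOA1. With median-of-ratios scaling APOA2 passed (log2 fold change -0.95, limma adjusted p = 0.0441), APOE had -0.32 with a limma adjusted p of 0.0521, and both genes then had genotypes that did not overlap, against 52.6% of genes so scaled. With that scaling 14.2% of all genes passed in the lower direction. With voom on the recovered reads, another limma fit, 2 of the 4 genes passed, and both were lower. These were APOA2 (-0.95, adjusted p = 0.0081) and APOE (-0.29, adjusted p = 0.0159), where 15.0% of all genes passed in the lower direction. Quantile normalization also passed both, APOA2 at -0.96 (limma adjusted p = 0.0323) and APOE at -0.33 (limma adjusted p = 0.0105), where 14.5% of all genes passed in the lower direction.

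Single libraries also moved these calls. Without PDHB+/-_1 replicate 1 APOA2 passed (-0.97, limma adjusted p = 0.0384), and without PDHB+/-_1 replicate 2 APOA1 passed (0.83, limma adjusted p = 0.0340). Over the 6 fits that left out 1 library each, the log2 fold change of APOA2 ranged from -0.97 to -0.62 with limma adjusted p from 0.0384 to 0.249, and that of APOA1 from 0.42 to 0.84 with limma adjusted p from 0.0340 to 0.489. Over 16 alternatives that gave a test, APOA2 passed in 6, APOE in 3, APOA1 in 1 and APOC1 in 0. The sign of APOA2, APOE and APOA1 was the same in all of these, whereas APOC1 turned to -0.03 with quantile normalization and to -0.0012 with voom under median-of-ratios scaling.

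**Figure D3:**
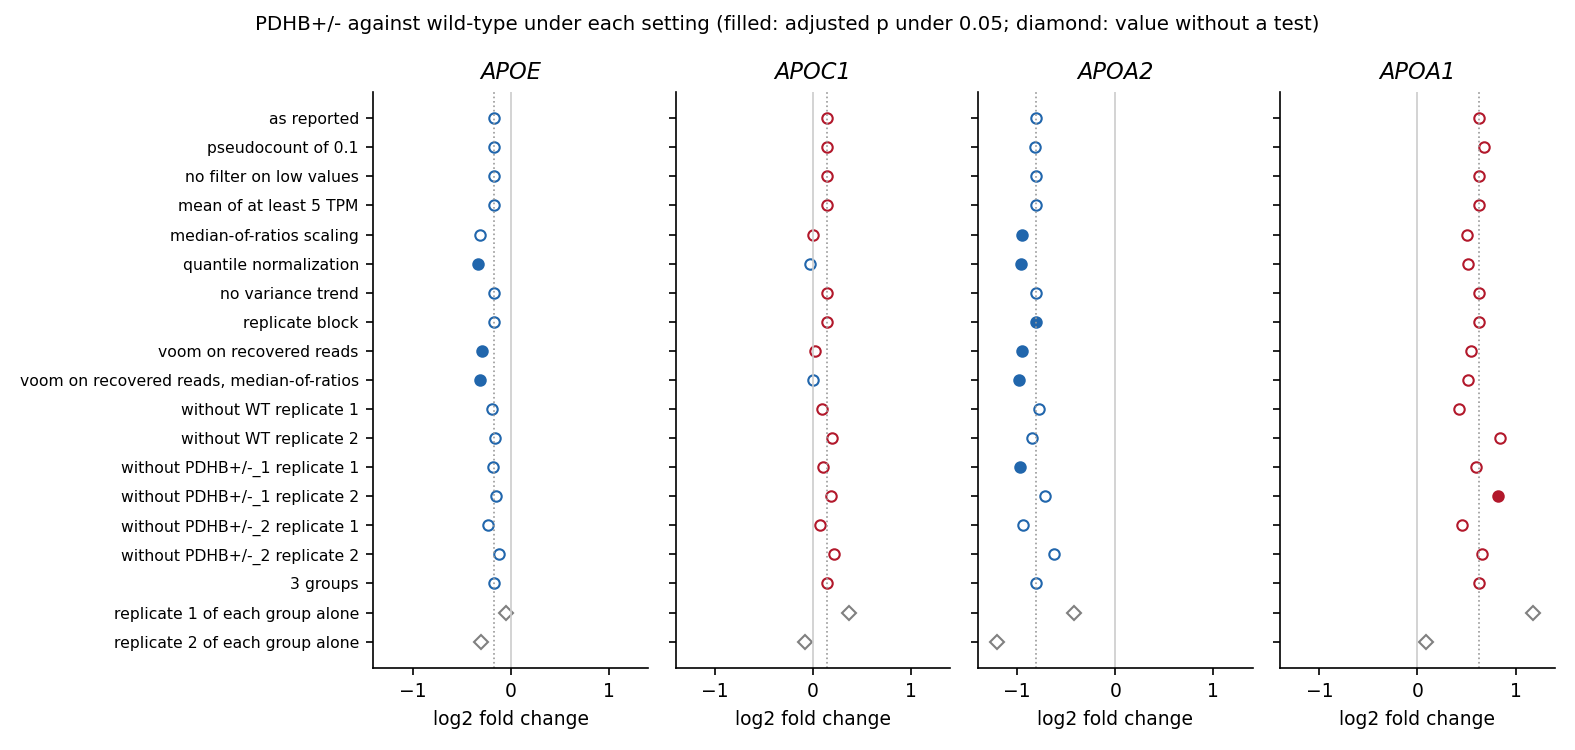
Log2 fold change of APOE, APOC1, APOA2 and APOA1 between PDHB+/- and WT under each processing setting, with the reported value as a dotted line. APOA2 stays between -0.62 and -0.98 wherever a test was run, APOA1 between 0.42 and 0.84, and APOC1 lies on both sides of 0.

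Each clone was then compared with WT, 2 libraries against 2 with the spread shared over 3 groups. In PDHB+/-_1 none of the 4 genes passed limma, against 19.9% of all genes tested. None had an unadjusted p under 0.05, against 37.3% of all genes, and 1 passed by voom, against 25.2%. APOA2 had -0.71 ± 0.36 (SE, limma adjusted p = 0.203), APOA1 0.40 ± 0.31 (SE, limma adjusted p = 0.386), APOE -0.19 ± 0.15 (SE, limma adjusted p = 0.401) and APOC1 0.15 ± 0.17 (SE, limma adjusted p = 0.554). In PDHB+/-_2 none passed limma either, against 20.0% of all genes. An unadjusted p under 0.05 was found for 2 of the 4, against 37.1% of all genes, and 1 passed by voom, against 22.3%. The 2 with a low unadjusted p were APOA2 with -0.91 ± 0.36 (SE, limma adjusted p = 0.124) and APOA1 with 0.86 ± 0.31 (SE, limma adjusted p = 0.10). APOE had -0.16 ± 0.15 (SE, limma adjusted p = 0.470) and APOC1 0.13 ± 0.17 (SE, limma adjusted p = 0.594). Both clone comparisons use the same WT libraries. With 1 library left out at a time, APOA2 ranged from -1.09 to -0.34 in PDHB+/-_1 and from -1.39 to -0.43 in PDHB+/-_2. APOA1 ranged from 0.055 to 0.75 in PDHB+/-_1 and from 0.54 to 1.18 in PDHB+/-_2. With a replicate block APOA2 passed in PDHB+/-_2 (limma adjusted p = 0.0382), where 4497 of 17291 genes did.

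Between the clones no difference was found in the 4 genes by limma (adjusted p = 1.0 for each), where 0.0174% of all genes passed. None of the 4 had an unadjusted p under 0.05, against 3.82% of all genes, and none passed by voom, against 0.0694%. The 95% intervals for PDHB+/-_2 minus PDHB+/-_1 on the log2 scale ran from -0.33 to 0.39 for APOE, from -0.43 to 0.40 for APOC1, from -1.07 to 0.68 for APOA2 and from -0.29 to 1.22 for APOA1. For all 4 genes these intervals include differences as large as those between the genotypes.

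Libraries of 1 clone differed more than the 2 WT libraries did. On the log2(TPM + 1) scale APOA2 was lower in replicate 2 than in replicate 1 by 0.75 in PDHB+/-_1 and by 0.96 in PDHB+/-_2, against 0.07 in WT. APOA1 was lower by 0.69 and 0.64 in the clones, and in WT it was higher in replicate 2 by 0.42. APOC1 was lower in replicate 2 by 0.25 and 0.45 and APOE by 0.09 and 0.34. The median of the signed differences over all genes tested was -0.05 and -0.07 in the clones. That median shows a shared shift and not how far a typical gene differed, so whether these genes varied more than others was not tested. Taken over the libraries numbered 1 alone, the genotype difference was -0.42 for APOA2 and 1.18 for APOA1. Taken over those numbered 2 it was -1.20 and 0.09, with no test in either case. Thus the sizes for APOA2 and APOA1 depended on which libraries were read, while their signs did not.

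The genes whose pattern was most like that of APOE and APOA2 were sought by Pearson's r of log2(TPM + 1) over the 6 libraries, as a description. For APOE these were MYCN, LSM12P1 and LOC100294336, with r of 0.992 for each, and 63 of 17290 genes had r over 0.95. For APOA2 they were PLS3, FAM72D and RASL10B, with r of 0.998, 0.997 and 0.997, and 134 genes had r over 0.95. PLS3, which encodes an actin-bundling protein, was 62.2 and 60.7 TPM in WT, 57.9 and 49.8 TPM in PDHB+/-_1 and 55.9 and 47.3 TPM in PDHB+/-_2. It was lower in replicate 2 of each clone, as APOA2 was, but by a smaller factor. Pearson's r does not depend on the size of a change. With 6 libraries in 3 groups, many genes reach a high r.

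The remaining apolipoprotein and lipoprotein assembly genes were mostly at low levels or did not pass the test. Of 26 genes 9 were tested, of which 1 was higher, 1 was lower and 7 did not pass, with a median log2 fold change of 0.11 against 0.13 for all genes tested. The shares over all genes tested were 22.8% higher and 8.86% lower. PLTP, which transfers phospholipid between lipoproteins, fell from 76.4 and 78.6 TPM to between 43.7 and 45.8 TPM (-0.78 ± 0.06 SE, limma adjusted p = 0.00043). Of the 26 genes, 13 had at most 3 reads in each library, APOC2, APOC4, APOH and LIPC among them at 0. APOA4, singled out after its values were seen, lies near APOA1, with APOC3 between them. It had 0 reads in both WT libraries and 10, 8, 14 and 4 in the PDHB+/- libraries. As a share of reads on genes this is at least 5.18-fold higher than in WT, with WT set at the limit of 3 reads over the group. At 0.79 TPM on average it was below the minimum for testing. With that minimum removed limma gave it a log2 fold change of 1.09 with an adjusted p of 0.0465, where 4497 of 34899 genes passed. Because APOA4 was chosen by these same values, that p adds no support for a difference.

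Among other serum protein genes, those called lower outnumbered those called higher at the 1 TPM minimum but not at a higher one. Of 39 genes 11 were tested, of which 6 were lower, 2 were higher and 3 did not pass, with a median log2 fold change of -0.48 against 0.13 for all genes tested, and median-of-ratios scaling left the counts at 6 and 2. Of all genes tested, 8.86% were called lower and 22.8% higher, and 14.2% were called lower with median-of-ratios scaling. With a minimum of 5 TPM 6 genes were tested, of which 3 were lower and 3 higher, with a median of -0.05. HP, the hemoglobin scavenger haptoglobin, was 6.80 and 6.12 TPM in WT, 1.10 and 0.227 TPM in PDHB+/-_1 and 1.15 and 0.243 TPM in PDHB+/-_2 (-2.20 ± 0.29 SE, limma adjusted p = 0.0022). F10, the zymogen of coagulation factor X, was 9.28 and 9.93 TPM in WT and between 2.06 and 2.72 TPM in PDHB+/- (-1.66 ± 0.12 SE, limma adjusted p = 0.00032). SERPINF1, an inhibitor of blood vessel growth, fell by 0.89 ± 0.11 on the log2 scale (SE, limma adjusted p = 0.0016). The other 3 that fell, named after their values were seen, were VTN, SERPING1 and CRABP2. CRABP2 carries retinoic acid inside cells and is not a serum protein. VTN had 15 and 14 reads in WT and 3 to 9 in PDHB+/-. HP and VTN reached the 1 TPM minimum only through WT, where they were high. Their calls therefore add no support to the count of lower genes. FN1, the matrix and plasma protein fibronectin, rose from 204.7 and 174.6 TPM to between 399.0 and 438.6 TPM (1.15 ± 0.09 SE, limma adjusted p = 0.00038). Of the 39 genes, 21 had at most 3 reads in each library, among them the fibrinogen chains, SERPINC1 and AMBP.

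Transcription factors that act on serum protein genes in liver and visceral endoderm were mostly present. Of 33 genes 24 were tested, of which 4 were higher, 3 were lower and 17 did not pass, with a median log2 fold change of 0.07 against 0.13 for all genes tested. The shares over all genes tested were 22.8% higher and 8.86% lower, or 31.7% called. With median-of-ratios scaling 3 were higher and 5 lower, where 2396 of 17282 genes were higher and 2456 lower. HNF4A, a nuclear receptor that binds apolipoprotein promoters in liver, was 6.97 and 5.98 TPM in WT, 0.702 and 0.739 TPM in PDHB+/-_1 and 0.923 and 1.28 TPM in PDHB+/-_2 (-1.97 ± 0.17 SE, limma adjusted p = 0.00052). It reached the 1 TPM minimum only through WT. FOXA3 was 38.1 and 41.0 TPM in WT and between 14.4 and 18.9 TPM in PDHB+/- (-1.18 ± 0.12 SE, limma adjusted p = 0.00094). HHEX, which liver bud growth needs, fell by 0.41 ± 0.12 on the log2 scale (SE, limma adjusted p = 0.0405), a call that held in 11 of 16 alternatives and was lost without WT replicate 1 (limma adjusted p = 0.208), WT replicate 2 (0.148) or PDHB+/-_1 replicate 2 (0.076).

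TBX3, which acts in early liver growth, was 14.6 and 15.7 TPM in WT and between 58.0 and 69.2 TPM in PDHB+/- (1.99 ± 0.09 SE, limma adjusted p = 7.9e-05). SOX17, a factor that specifies endoderm, rose from 429.5 and 454.0 TPM to between 711.2 and 773.8 TPM (0.74 ± 0.08 SE, limma adjusted p = 0.00088). CEBPA rose by 0.74 (limma adjusted p = 0.0124) from a low level of 1.72 and 1.43 TPM, a call lost without WT replicate 1 (limma adjusted p = 0.061) or WT replicate 2 (0.102), and RXRA by 0.23 (limma adjusted p = 0.0341), a call that held in 5 of 16 alternatives. FOXA2, GATA4, GATA6 and FOXA1 did not pass, with log2 fold changes of -0.11 for FOXA2, 0.10 for GATA4, 0.20 for GATA6 and -0.14 for FOXA1. Whether any of these factors had a part in the level of APOA2 or APOA1 was not tested.

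Receptors and transporters that take up or hand over lipoproteins and retinol were called higher more often than lower, where 31.7% of all genes tested were called (22.8% higher and 8.86% lower). Of 25 genes 23 were in the table and 20 were tested, of which 11 were higher, 2 were lower and 7 did not pass, with a median log2 fold change of 0.64 against 0.13 for all genes tested. The counts were again 11 and 2 with median-of-ratios scaling. SORL1, a sorting receptor that also binds APOE, rose from 7.13 and 6.72 TPM to between 15.6 and 17.5 TPM (1.17 ± 0.08 SE, limma adjusted p = 0.00031). CUBN, the receptor by which visceral endoderm takes up APOA1, rose from 1.39 TPM in both WT libraries to between 5.50 and 7.20 TPM (1.65 ± 0.13 SE, limma adjusted p = 0.00041). TFRC, the receptor of the serum iron carrier transferrin, rose by 1.23 ± 0.24 on the log2 scale (SE, limma adjusted p = 0.0093), a call lost without WT replicate 1 (limma adjusted p = 0.063) or WT replicate 2 (0.076).

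**Figure D4:**
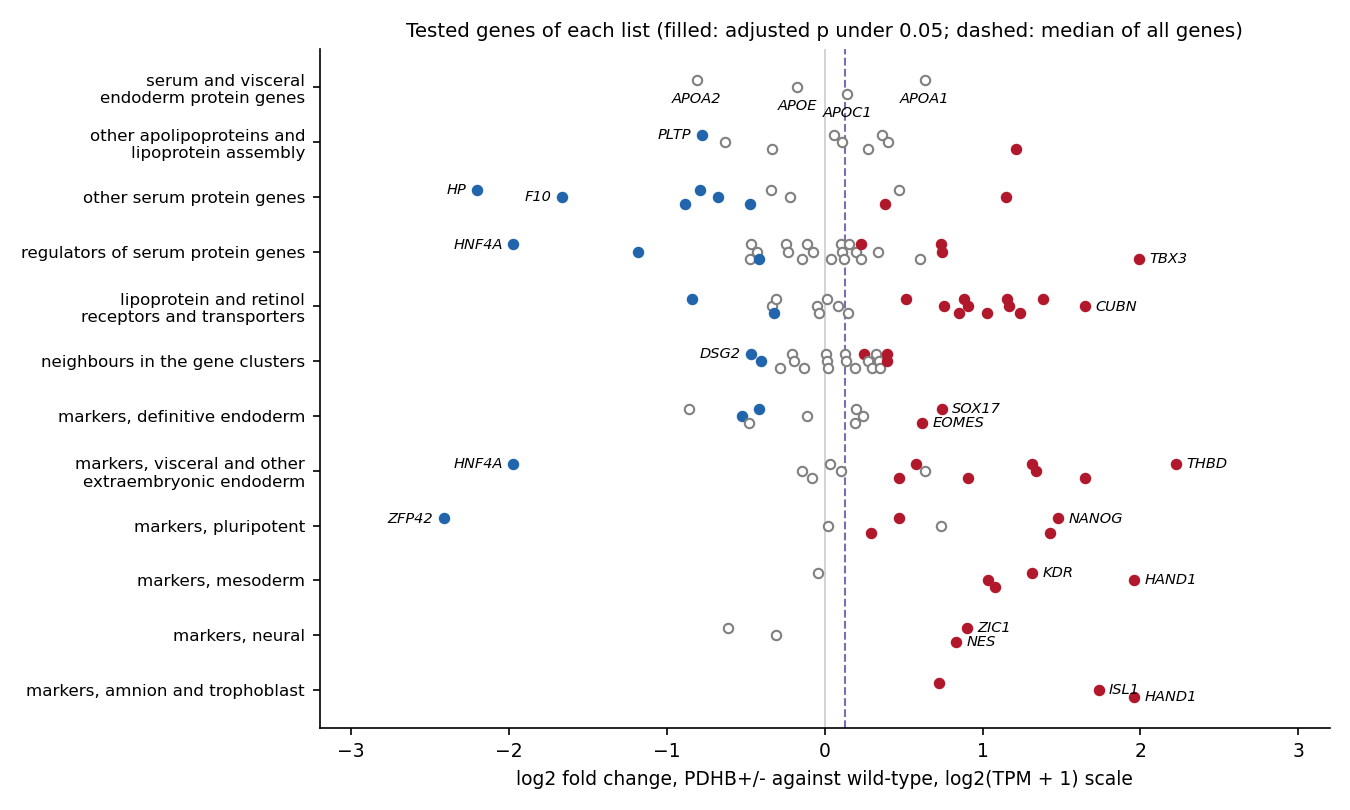
Log2 fold change between PDHB+/- and WT of each tested gene, by gene list; filled red and blue points passed the test as higher and lower, open points did not, and the dashed line is the median of all genes tested (0.13). None of the 4 apolipoprotein genes at the top is filled, 6 of 11 tested serum protein genes are filled on the lower side, and 11 of 20 receptors and transporters are filled on the higher side.

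Genes that neighbour the 10 in the genome were read as a check on position. Of 45 neighbours 20 were tested, of which 3 were higher, 2 were lower and 15 did not pass, with a median log2 fold change of 0.13, that of all genes. The shares over all genes tested were 22.8% higher and 8.86% lower. With median-of-ratios scaling 1 neighbour was higher and 3 lower, where 2396 of 17282 genes were higher and 2456 lower. Around APOE and APOC1, TOMM40 rose by 0.39 (limma adjusted p = 0.0440, a call that held in 4 of 16 alternatives) and CLPTM1 by 0.40 (limma adjusted p = 0.0093, lost without WT replicate 1 at 0.096 or WT replicate 2 at 0.059), while NECTIN2 had 0.30 (limma adjusted p = 0.0676). The pseudogene APOC1P1, a near copy of APOC1, had 3.40 and 3.54 TPM in WT and between 1.39 and 3.89 TPM in PDHB+/-, far below APOC1 itself. APOC4 and APOC2 of the same cluster had 0 reads in all 6 libraries. Near APOA1, APOC3 had at most 1 read in each library, and APOA5 at most 4. DSG2 near TTR fell by 0.47 (limma adjusted p = 0.0045, lost without WT replicate 1 at 0.058) and FRA10AC1 near RBP4 by 0.40 (limma adjusted p = 0.0244, lost without WT replicate 1 at 0.071, WT replicate 2 at 0.195 or PDHB+/-_2 replicate 1 at 0.051).

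Markers of the cell types these cultures could hold were read beside the 10 genes. The list for visceral and other extraembryonic endoderm holds TTR, AFP, APOA1 and APOB of the 10 genes, and APOA1 is among those tested. Of its 18 markers 13 were tested, with 7 higher, 1 lower and 5 that did not pass. The summed level of the list was 1153 to 1164 TPM in WT and 1509 to 1792 TPM in PDHB+/-. Most of that sum was SPARC, a matrix protein gene that many other cell types express, with 652.4 and 658.4 TPM in WT and 838.4 to 985.2 TPM in PDHB+/-. THBD rose by 2.22 (limma adjusted p = 5.7e-05), CUBN by 1.65 and PTH1R by 1.34 (limma adjusted p = 0.0033), HNF4A fell by 1.97, and the defining markers TTR and AFP were at 0 and at most 2 reads. Of 10 hepatocyte markers 7 had at most 3 reads in each library and the sum was 5.56 to 6.92 TPM in WT and 4.01 to 5.34 TPM in PDHB+/-, with CPS1 lower by 0.74 (limma adjusted p = 0.0150), a call lost without WT replicate 1 (limma adjusted p = 0.128) or WT replicate 2 (0.070). CPS1 reached the 1 TPM minimum only through WT. All 10 definitive endoderm markers were tested and 2 were higher (SOX17 and EOMES) and 2 lower (GSC, a call lost without WT replicate 2 at a limma adjusted p of 0.051, and HHEX), with a sum of 16254 to 16469 TPM in WT and 11332 to 15393 TPM in PDHB+/-. Most of that sum was CER1, an inhibitor of Nodal, with 13850.1 and 13605.4 TPM in WT and 8498.1 to 12154.1 TPM in PDHB+/- (limma adjusted p = 0.0948). Likewise most of the mesoderm sum was MIXL1, with 1014.8 and 1046.3 TPM in WT and 930.4 to 1077.7 TPM in PDHB+/- (limma adjusted p = 0.749). Pluripotency markers were higher in 4 of 7 tested and lower in 1, with a sum of 1765 to 1821 TPM in WT and 1924 to 2345 TPM in PDHB+/-, most of it TDGF1 (957.7 and 999.4 TPM in WT) and LIN28A (653.1 and 669.7 TPM in WT). Mesoderm markers were higher in 4 of 5 (sums of 1044 to 1075 TPM in WT and 1016 to 1142 TPM in PDHB+/-), neural markers in 2 of 4 (535 to 541 TPM and 476 to 596 TPM) and amnion and trophoblast markers in 3 of 3 (12.3 to 14.4 TPM and 28.2 to 38.1 TPM). HAND1, on both the mesoderm and the amnion lists, had 0 and 2 reads in WT and 23 to 44 in PDHB+/-. TBXT had 8 and 9 against 17 to 63. These genes, and PTH1R above, reached the 1 TPM minimum only through PDHB+/-, so they add no support to the counts. Calls held in 4 of 15 alternatives for TBXT, 12 of 16 for GATA3, 14 of 16 for PDGFRA and 10 of 16 for LIN28A. Most of the neural sum was OTX2, with 428.5 and 427.8 TPM in WT and 304.4 to 404.5 TPM in PDHB+/- (limma adjusted p = 0.086). The genes that make up most of these sums were named after their values were seen. Of all genes tested, 22.8% were higher and 8.86% lower. With median-of-ratios scaling the counts were 2 higher and 4 lower for definitive endoderm, 2 and 1 for pluripotency, 3 and 0 for mesoderm, 2 and 2 for neural and 2 and 0 for amnion and trophoblast markers, so the one-sided neural count held on the TPM scale. Quantile normalization also gave 2 and 2 for the neural markers, and 3 higher and 1 lower for mesoderm. The part of these markers in the values of APOA2, APOA1, HP or the receptors was not tested.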

How the data were processed

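RNA-seq of 6 HUES8 libraries was analysed from the table the authors deposited. Per the submitters' processing notes and the methods of the study, reads were aligned to hg38 with Bowtie2 (2.3.5.1 in the notes), kept at 1 location each, assigned to genes with featureCounts and expressed by the authors as TPM. The deposited TPM column sums include 1 unnamed line, a total, which was dropped; no column of samples was left unused. The gene annotation and the use of strand are not given in the sources used here.

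TPM keeps no counts, so whole reads were recovered from the steps between values, with 1 constant per library and 1 length per gene. With the shortest length that made its values whole chosen for each gene, all 34899 genes above 0 lay within 5.5e-05 reads of whole numbers, and on simulated data 97.3% of genes were recovered exactly. Reads on genes ranged from 11367719 to 14315627 per library.

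Groups came from the sample labels. The main test was limma 3.58.1 (R 4.3.3; linear model, empirical Bayes with a variance trend) on log2(TPM + 1), over the 17291 genes that averaged 1 TPM or more, with Benjamini-Hochberg adjustment over all of them and a threshold of 0.05. Fold changes are on that scale, which understates low genes. A two-sided test was used throughout; PDHB+/- against WT used both genotypes, and the clone contrasts used 3 groups. Called means an adjusted p under the threshold. Intervals are 95%. The fit was tested on simulated data. Named genes were all 10 genes, PDHB, up to 4 called genes per other list by size of change with non-overlapping groups, regulators and neighbours, and 3 genes of most similar pattern for APOE and APOA2. The members and lists were chosen with earlier results of these data known. Positions are from GENCODE on hg38 and promoters from RefSeq. Alternatives covered the pseudocount, the minimum level, scaling, the variance trend, a replicate block, voom on reads and leaving out each library. Some genes of the lists are counted but not reported here.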

Additional observations from a re-analysis of the deposited data

Results flagged for a closer look

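Among the 45 values examined for a library far from the others of its group, 1 stood apart, where chance alone gives 1 in 20, or 2.25 in all. It was not one of the 10 genes but PTH1R, a receptor of parathyroid hormone on the list of extraembryonic endoderm markers, at 1.41 TPM in PDHB+/-_2 replicate 1 against 2.28 to 2.31 TPM in the other PDHB+/- libraries. The gap was 0.961 of the range of the group.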

How the results depend on the processing

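The calls for the apolipoprotein genes depend on scaling and on single libraries, while most signs do not. For PDHB+/- against WT the number of the 4 genes called was 0 as reported, 1 with median-of-ratios scaling, 2 with quantile normalization and 2 with voom on recovered reads, with or without median-of-ratios totals (the latter chosen after seeing the data). Of all genes 5475 were called as reported and 4852, 5224, 5508 and 5424 in those settings. APOA2 passed with median-of-ratios scaling (-0.95), quantile normalization (-0.96), voom (-0.95) and voom with median-of-ratios totals (-0.98), and APOE with quantile normalization (-0.33) and voom (-0.29 and -0.32). APOC1 reversed to -0.029 with quantile normalization and to -0.0012 with voom and median-of-ratios totals. Of the 4 genes, those whose genotypes did not overlap rose from 1 to 2 with median-of-ratios scaling. Over libraries numbered 1 alone the values were 1.18 for APOA1, -0.42 for APOA2, 0.37 for APOC1 and -0.048 for APOE, and over those numbered 2 they were 0.090, -1.20, -0.083 and -0.30. The cause was not tested.

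In the clone comparisons 1 of the 4 genes was called in each clone with quantile normalization, voom and voom with median-of-ratios totals. Of all 17291 genes, 3708 in PDHB+/-_1 and 3236 in PDHB+/-_2 were called with quantile normalization. With voom these were 4357 and 3853, and with median-of-ratios totals 4214 and 3775. Genes called fell from 3433 to 1948 in PDHB+/-_1 and from 3460 to 1793 in PDHB+/-_2 with no filter on low values, where more genes were tested. Between the clones 3 genes were called, against 6 with a mean of at least 5 TPM, 9 with no variance trend and 12 or 13 with voom. APOC1 reversed in PDHB+/-_1 to -0.021 with quantile normalization, and in PDHB+/-_2 to -0.024 with median-of-ratios scaling, -0.038 with quantile normalization and -0.025 with voom and median-of-ratios totals. For APOE the clone difference reversed to -0.0072 with median-of-ratios scaling and -0.0074 with voom and median-of-ratios totals.

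Leaving out 1 library at a time gave 1654 to 5200 genes called between genotypes, with 1772 without WT replicate 1 and 1654 without WT replicate 2, and 0 to 1 of the 4 apolipoprotein genes. The ranges were 360 to 3417 genes in PDHB+/-_1, with 360 and 503 without WT replicates 1 and 2 and 995 without PDHB+/-_1 replicate 1, and 307 to 3354 in PDHB+/-_2, with 307 and 333 without WT replicates 1 and 2 and 1235 and 1993 without its own replicates 1 and 2. Between the clones 2 to 3 genes were called. Log2 fold changes ranged from -0.97 to -0.62 for APOA2, 0.42 to 0.84 for APOA1, 0.07 to 0.22 for APOC1 and -0.23 to -0.12 for APOE. In PDHB+/-_2 APOC1 ranged from -0.088, without its replicate 1, to 0.36, and APOE from -0.33 to 0.012, without its replicate 2. Between the clones, where no gene of the 4 was called, both signs occurred, with ranges of -0.67 to 0.29 for APOA2, -0.24 to 0.21 for APOC1 and -0.15 to 0.20 for APOE.

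With a replicate block APOA2 passed between genotypes (-0.81, limma adjusted p = 0.0172), as 1 of the 4 genes, where 6266 of all 17291 genes were called. In PDHB+/-_2 1 of the 4 passed, again APOA2 (-0.91, limma adjusted p = 0.0382), where 4497 of all genes were called. The numbers share no stated batch. Differences between replicates correlated across genes with r of -0.012 and -0.0075 between WT and each clone and 0.353 between the clones. Among values of the clone contrasts, other genes and gene lists, 799 kept direction and side of the threshold or moved within the spread, 66 lost the call, 7 gained it, 33 without a test moved and 14 reversed. Among the counts and genotype values of the 4 genes these were 145, 0, 10, 38 and 2. For genes near 0 reads, depth is the limit.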
